A study of Bos taurus with 24 samples.

Results

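COX1 (ENSBTAG00000043561), COX2 (ENSBTAG00000043556), COX3 (ENSBTAG00000043560), CYTB (ENSBTAG00000043550), ND1 (ENSBTAG00000043558) and ATP6 (ENSBTAG00000043584) are encoded by the bovine mitochondrial genome. They were chosen by their Ensembl IDs, with no threshold on their values, and are 6 of the 24615 genes counted in all cows. RNA-Seq of granulosa cells, the somatic cells that line the follicle and surround the oocyte, was performed on 24 Holstein cows with 1 library per cow. The cells were aspirated after slaughter from all antral follicles of both ovaries of a cow, depleted of leukocytes with anti-CD45 beads and of erythrocytes by lysis, so that each library is a pool of follicles of different stages. The cows were in the luteal phase and were not synchronized. The oocytes of each cow went through in vitro production (IVP) of embryos and gave 3 scores, namely the share of oocytes that became blastocysts (BL rate), the mean stage of expansion of the blastocysts (kinetic) and their mean quality grade (morphology).

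No group received a treatment. The groups were defined by the semen used on the oocytes after the cells had been taken, with 15 cows assigned to bulls of a high Nordic Total Merit index (high-NTM) and 9 cows to bulls of a low index (low-NTM). The age, herd, RNA integrity and sampling date of the cows were not analysed here, and whether the classes differed in them was not tested. Cow 8, a low-NTM cow, was left out of the main results and its values are given apart. The study left this library out for its low portions of uniquely mapped and exonic read pairs and its distance from the others in clustering. Cows 1 and 15, both high-NTM, had no blastocysts and are listed with 0 for all scores.

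The mitochondrial genome is a small circular DNA present in many copies per cell, and its genes are transcribed as long precursors from both strands and then split into single mRNAs. The proteins of these mRNAs form the membrane core of the respiratory chain, together with many subunits that are encoded in the nucleus, imported and assembled with them. Electrons pass from complex I and complex II over complex III to oxygen at complex IV, and the proton gradient built on the way drives ATP synthase. In the follicle, granulosa cells also use mitochondria for the first step of steroid synthesis and exchange metabolites with the oocyte.

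The 24 libraries held between 15525201 and 27074496 counted read pairs, so counting error on the share of an abundant gene was small beside the differences between cows. The deposited tables list Ensembl IDs without names, and the gene table used here matched 0 of them. The label of the cells was therefore not checked against granulosa, theca, leukocyte or erythrocyte markers, and the nuclear subunits of the same complexes could not be picked out. In such bulk samples, fewer cells of a type and less RNA per cell cannot be told apart.

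The 6 genes together took 1.69% of all counts in the lowest of the 23 cows, 2.88% in the median cow and 5.83% in the highest. The mean was 3.31% ± 1.21 (SD, n = 23). Both NTM classes were found among the lowest and among the highest cows. Cow 22 was the lowest with 1.69%, followed by cow 12 with 1.81%, cow 17 with 2.13%, cow 10 with 2.13% and cow 11 with 2.25%. Cow 23 was the highest with 5.83%, after cow 18 with 5.72%, cow 20 with 5.46%, cow 4 with 4.86% and cow 5 with 4.62%. The cows formed a gradual order with its widest step in the middle of the range, between cow 24 at 3.78% and cow 5. With 1 library per cow there is no repeat measurement, so the order of neighbouring cows cannot be tested beyond counting error. In cow 8 the 6 genes took 0.0758% of the counts (95% Wilson interval 0.0745 to 0.0771, counting error only), which was 22.3-fold below the lowest and 38.0-fold below the median of the other cows.

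**Figure D1:**
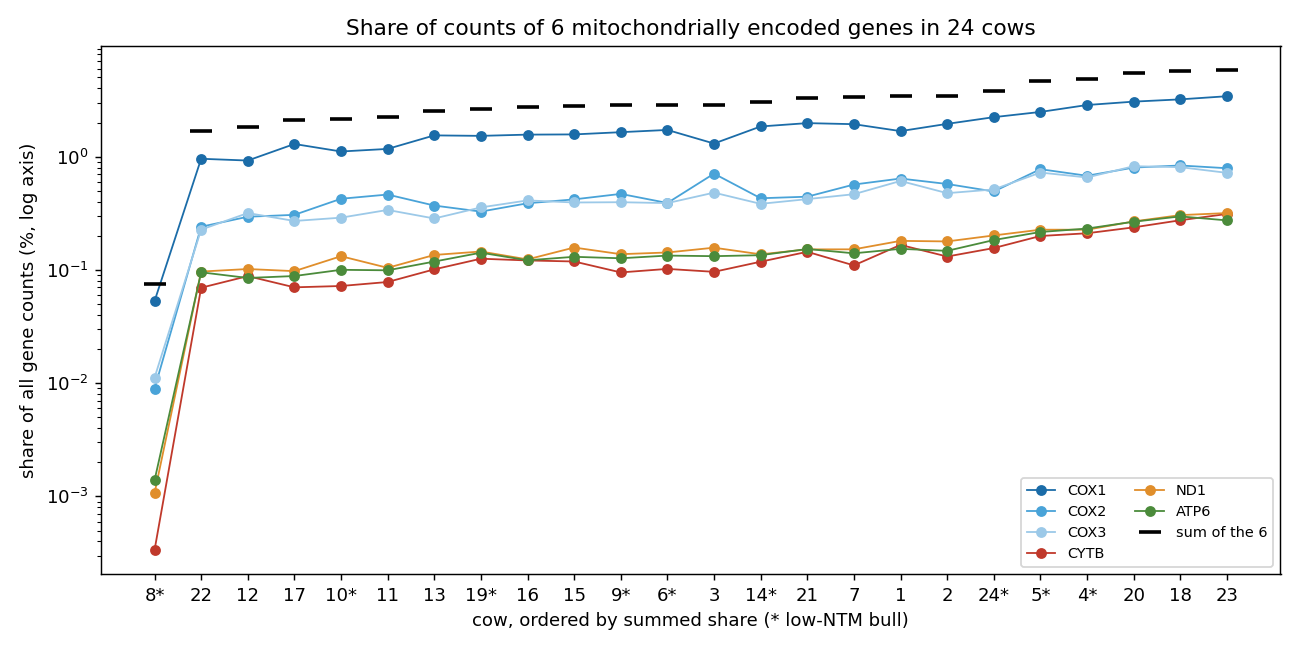
Share of all gene counts (%, log axis) of COX1, COX2, COX3, CYTB, ND1 and ATP6 in each of the 24 cows, ordered by the summed share, which is drawn as black bars; lines join the points of a gene and an asterisk marks low-NTM cows. The lines run nearly parallel from cow 22 to cow 23, while all 6 genes lie lower and farther apart in cow 8.

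ND1 is a membrane subunit of complex I, the NADH dehydrogenase where electrons of NADH enter the chain. It held 0.0967% of the counts in cow 22, 0.152% in the median cow and 0.318% in cow 23. The highest cow was 3.28-fold above the lowest, the narrowest range among the 6 genes. In cow 8 it had 191 counts, or 0.00107%.

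CYTB, cytochrome b, is the mitochondrially encoded subunit of complex III, which passes electrons from ubiquinol to cytochrome c. It held 0.0696% of the counts in cow 22, 0.119% in the median cow and 0.312% in cow 23. Its range of 4.48-fold was the widest of the 6 genes. In cow 8 it had 60 counts, or 0.000335% (95% Wilson interval 0.00026 to 0.000431).

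COX1, COX2 and COX3 form the core of complex IV, cytochrome c oxidase. COX1 and COX2 together hold its heme and copper centres, which pass electrons to oxygen. COX1 held 0.924% of the counts in cow 12, 1.68% in the median cow and 3.41% in cow 23, and 0.0529% in cow 8 with 9481 counts. COX2 held 0.240% in cow 22, 0.463% in the median cow and 0.836% in cow 18, and 0.00892% in cow 8 with 1598 counts. COX3 held 0.227% in cow 22, 0.411% in the median cow and 0.823% in cow 20, and 0.0112% in cow 8 with 1998 counts. The lowest cow was cow 22 or cow 12, while the highest was a different cow for each of the 3 genes.

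ATP6 is a subunit of the proton channel of ATP synthase, complex V. It held 0.0849% of the counts in cow 12, 0.135% in the median cow and 0.297% in cow 18. In cow 8 it had 248 counts, or 0.00138%. In the mitochondrial gene order of the RefSeq table, ATP6 lies between ATP8 and COX3, and its gene overlaps that of ATP8, so the division of read pairs between such neighbours depends on the counting mode.

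Counts of different genes depend on gene length, which was not used here, so the shares do not rank the genes by mRNA level. In counts, COX1 was the first of the 6 genes in 24 of 24 cows and exceeded the other 5 together in 22 of 24. COX1 made up 45.3% of the counts of the 6 genes in cow 3, 57.3% in the median cow and 60.8% in cow 17. COX2 followed with 12.5% in cow 19, 14.6% in the median cow and 24.6% in cow 3. CYTB had the smallest median portion, with 3.25% in cow 7, 4.13% in the median cow and 5.35% in cow 23. Cow 3 was set apart by a low COX1 and a high COX2 portion.

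The shares of the 6 genes varied together over the 23 cows. Of the variance of the log2 shares over cows, 91.6% was common to the 6 genes and 8.44% was left to single genes. Pearson's r between the log2 shares of the 15 pairs ran from 0.785 for COX2 and CYTB to 0.976 for ND1 and ATP6, and Spearman's rho from 0.726 to 0.949. Without the 2 cows farthest from the median, r ran from 0.724 to 0.965. These are descriptions over 23 libraries, in which both genes of a pair share the library and its depth. In log2 cpm, the scaled values described below, ATP6 followed the mean of the other 5 most closely (r = 0.983). Next were ND1 (0.981), COX3 (0.969), CYTB (0.952), COX1 (0.95) and COX2 (0.904). The scaling factor of a cow is common to all its genes, so these r are not on the scale of those above.

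A ratio between counts of a library does not change with its depth or scaling. The steadiest ratio was that of ND1 to ATP6, with 0.976 in cow 4, a median of 1.08 and 1.32 in cow 10. Its SD over cows was 0.11 on the log2 scale, where the median SD of the 15 pairs was 0.22. COX1 to ATP6 came next, with 9.87 in cow 3, a median of 12.2 and 14.7 in cow 17 (SD 0.15). Genes of the same complex did not always have the steadier ratio. Within complex IV, COX1 to COX2 was the second most variable of the 15 pairs, with 1.84 in cow 3, a median of 3.83 and 4.66 in cow 19 (SD 0.34). COX2 to COX3 was steadier, with 0.919 in cow 19, a median of 1.07 and 1.47 in cow 3 (SD 0.20). The least steady pair was COX2 to CYTB, with 2.54 in cow 23, a median of 3.63 and 7.36 in cow 3 (SD 0.39).

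After the mean of the 6 genes in each cow was taken away, 1 axis held 60.8% of what was left. COX2 (weight 0.75) and COX3 (0.26) lay on its positive side, CYTB (-0.49), COX1 (-0.30) and ATP6 (-0.20) on its negative side, and ND1 near 0 (-0.015). Cows 3, 11 and 10 were at the COX2 end and cows 19 and 23 at the CYTB end. In cow 3, COX2 departed by 0.59 and COX1 by -0.37 from the level given by the mean of the 6 genes, in log2. In cow 23, CYTB departed by 0.37 and COX2 by -0.23. The SD left after the cow mean was 0.23 for COX2, 0.18 for CYTB, 0.16 for COX1, 0.13 for COX3, 0.099 for ND1 and 0.091 for ATP6, all in log2, against 0.49 to 0.62 before it was taken away.

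**Figure D2:**
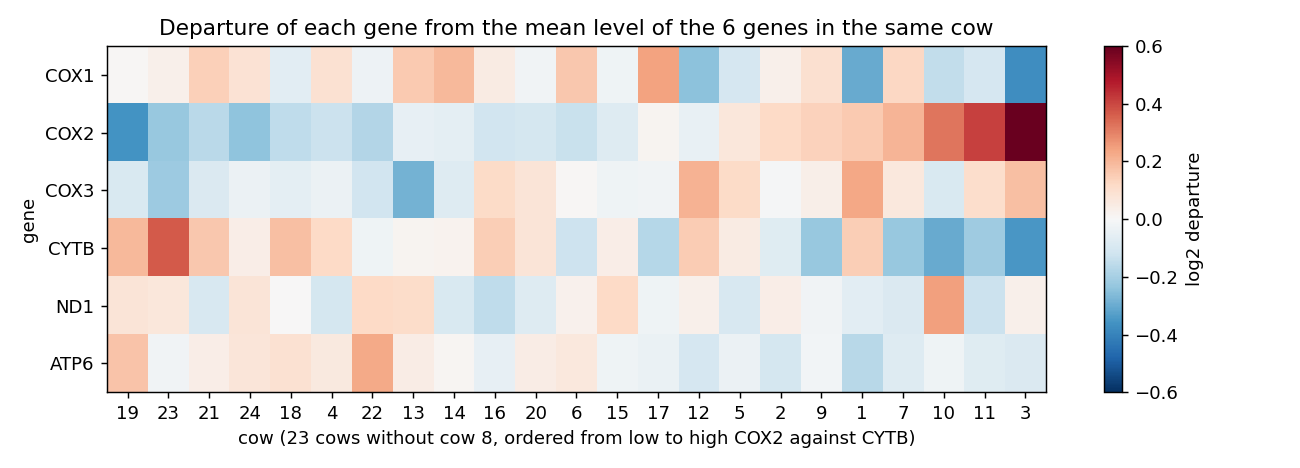
Log2 departure of the share of each gene (vertical axis) from the mean level of the 6 genes in the same cow (horizontal axis, 23 cows without cow 8, ordered from low to high COX2 against CYTB); red is above and blue below that level. COX2 runs from blue on the left to red on the right and CYTB the other way, while ND1 and ATP6 stay pale in most cows.

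Over the 23 cows the 6 genes varied more than most genes. The SD of log2 cpm (counts scaled to a common library size with edgeR's TMM factors) was 0.58 for ND1, 0.59 for ATP6, 0.61 for COX1, 0.62 for COX3, 0.63 for COX2 and 0.69 for CYTB. The median over the 12868 genes that passed the filter on low counts was 0.37, and between 73.7% (ND1) and 80.1% (CYTB) of these genes had a lower SD. Among the 1120 genes with a mean of at least 100 cpm, the median was 0.35 and between 83.4% and 89.8% had a lower SD.

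By the rule for likeness, the 5 other genes whose log2 cpm had the highest r with the mean of the 6 genes over the 23 cows were taken. These were ENSBTAG00000043564 (r = 0.952), ENSBTAG00000043577 (0.940), ENSBTAG00000043568 (0.919), ENSBTAG00000043571 (0.918) and ENSBTAG00000043559 (0.864). Of 12862 other genes, 4 had an r above 0.9 and 7 above 0.8. The names of these 5 IDs were not given in the sources used here, and nothing is said of their function. All 5 ID numbers lie between those of CYTB and ATP6. Whether these genes are also mitochondrially encoded was not checked, so they should not be read as independent of the 6 genes. In cow 8 they had 35, 220, 52, 37 and 8 counts, and their shares were 158, 92.8, 396, 329 and 395 times below the median of the other cows, in the order given.

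Cow 8 was low for all 6 genes, but not by the same factor. The share of COX1 was 31.8-fold below the median of the other 23 cows, that of COX3 36.8-fold, that of COX2 51.9-fold, that of ATP6 97.4-fold, that of ND1 142-fold and that of CYTB 354-fold. The 3 complex IV genes thus lay closest to the other cows and CYTB farthest from them. None of these shares came near the other cows: the lowest of them was 17.5-fold above cow 8 for COX1 and 208-fold above it for CYTB. On the log2 cpm scale, with a prior count of 2, cow 8 differed from the median of the others by -5.09 (COX1), -5.23 (COX3), -5.86 (COX2), -6.65 (ATP6), -7.14 (ND1) and -8.42 (CYTB). These fold differences set 1 library against the median of the others and have no replicate of cow 8 behind them.

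Among all 12925 genes that passed the filter with cow 8 included, the median difference of cow 8 was -0.06, with a 1st percentile of -3.75 and a 99th of 2.95, and 97 genes were below -4. CYTB was the 4th lowest of these genes, ND1 the 11th, ATP6 the 14th, COX2 the 22nd, COX3 the 32nd and COX1 the 39th. Among the 1112 of them with at least 100 cpm, the ranks were 3, 9, 10, 13, 17 and 18 in the same order. In the other 23 cows, the median of the 6 genes lay between -1.18 (cow 22) and 1.38 (cow 20) from the median cow, and the 6 genes lay within 1.10 of each other or less (cow 3). In cow 8 they lay 3.33 apart.

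**Figure D3:**
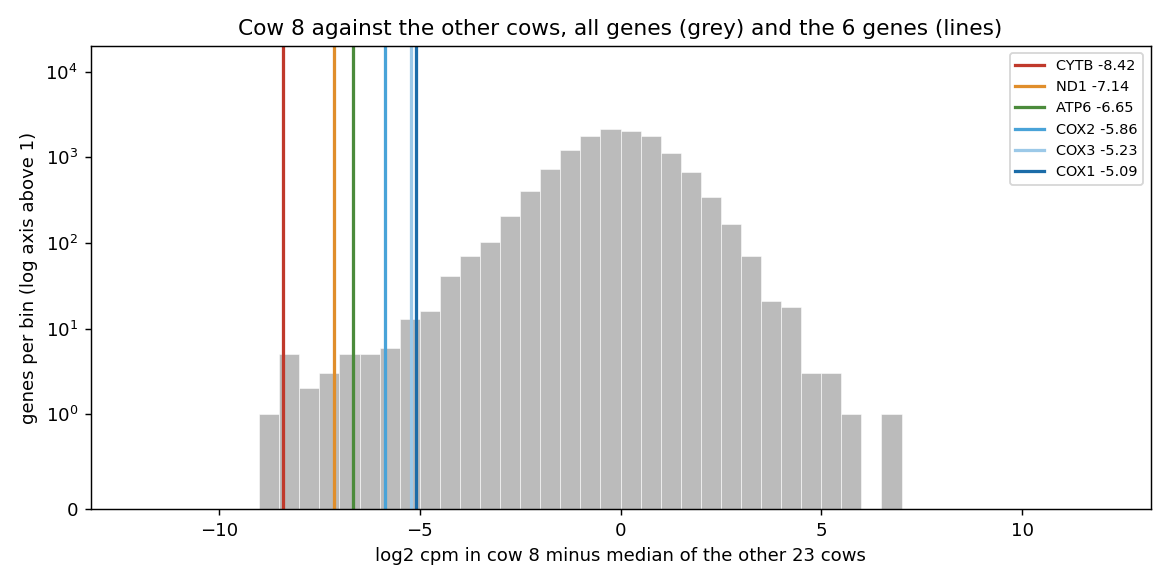
Histogram of the log2 cpm in cow 8 minus the median of the other 23 cows (horizontal axis) for 12925 genes, with the number of genes per bin on a vertical axis that is logarithmic above 1; coloured lines mark the 6 genes. The lines lie in the left tail, from -5.09 for COX1 to -8.42 for CYTB, while the grey mass is centred at -0.06.

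The ratios in cow 8 moved with these unequal factors. COX1 to CYTB was 158 in cow 8 (exact 95% interval 123 to 207, counting error only), against 10.1 to 18.4 with a median of 13.7 in the others. COX1 to ND1 was 49.6 against 8.31 to 13.5, and COX1 to ATP6 was 38.2 against 9.87 to 14.7. Both were far above the range of the other cows. CYTB to ND1 was 0.314 against 0.546 to 0.982, and ND1 to ATP6 was 0.770 against 0.976 to 1.32, both below it. Cow 8 was outside the range of the other cows in 14 of the 15 pairs. The exception was COX1 to COX3, with 4.75 in cow 8 against 2.71 to 5.42. COX1 made up 69.8% of the counts of the 6 genes in cow 8 and CYTB 0.442%.

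Cow 8 also departed from the others over all genes. The SD over genes of its log2 cpm difference from the median was 1.33, the highest of the 24 cows, followed by cow 12 with 0.993. In depth it lay near the lower end. It had 17917470 counts, where only cow 24 had fewer (15525201) and the next was cow 7 with 21488333. Its 15674 genes with a count were near the lower end of the 15559 to 21629 of the other cows. The 10 highest other genes took 27.6% of its counts, within the 19.1% to 39.2% of the others. With 25% of oocytes reaching the blastocyst stage, a kinetic of 1.25 and a morphology of 2.00, its IVP scores also lay inside the range of the other cows.

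The comparison with the IVP scores asked whether the level of a gene in the granulosa cells went with the outcome of the oocytes of the same cow. At the ends of the order, high and low scores were mixed. Cow 23, with the highest summed share, scored 57% for BL rate and 1.88 and 2.75 for kinetic and morphology. Cow 18, with nearly the same summed share, had 20%, 1.00 and 2.00. Cow 17, with the highest BL rate of 71%, was among the 3 lowest in summed share at 2.13%. The summed share was 2.13% to 5.83% with a median of 4.11% in the 6 cows with a BL rate of 50% or more. It was 2.13% to 5.72% with a median of 2.83% in the 6 cows with 25% or less. The ranges overlapped almost fully, but the upper end of the lower set rested on cow 18 alone. The other cows of that set had 3.43% (cow 1) or less. Cows 1 and 15, without blastocysts, had 3.43% and 2.79%, near the middle.

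**Figure D4:**
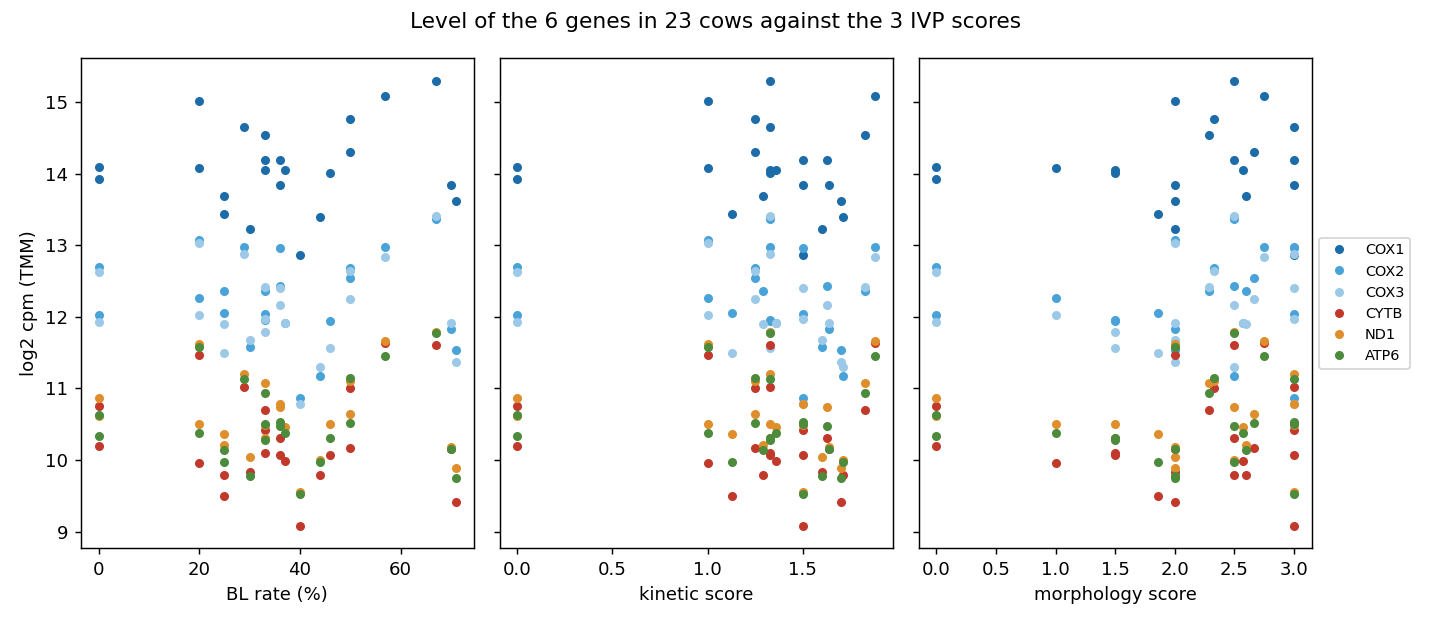
Log2 cpm (TMM) of the 6 genes in 23 cows against BL rate (%), kinetic and morphology scores, with 1 point per gene and cow. The points of each gene form a band without a visible slope, and the cows at 0 (cows 1 and 15) lie inside the band.

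With edgeR's quasi-likelihood test and Benjamini-Hochberg adjustment over all genes tested, 0 of the 6 genes passed an FDR of 0.05 for BL rate, where 0 of 12868 genes did (0%). The count at an unadjusted p under 0.05 was also 0 of 6, against 380 genes (2.95%), and DESeq2 and limma voom called 0 of 6 as well, and also 0 of 12868 genes in all (0%). The slope of COX1 per 20% of BL rate was 0.14 ± 0.13 (SE, log2, n = 23), with a 95% interval of -0.14 to 0.42 and an adjusted p of 0.977 by edgeR. The slopes of the others were 0.09 ± 0.15 for CYTB, 0.09 ± 0.13 for ATP6, 0.05 ± 0.13 for ND1, 0.04 ± 0.14 for COX3 and 0.0010 ± 0.14 for COX2. The 6 intervals lay between -0.28 and 0.42, on the log2 scale per 20%. All 6 slopes were above 0, as were 51.8% of all slopes, and leaving out single cows moved them both ways. With 1 cow left out, the highest slopes were 0.21 (COX1), 0.17 (ATP6), 0.17 (CYTB), 0.12 (ND1), 0.11 (COX3) and 0.06 (COX2). The lowest were those without cow 20. Without cow 20 (BL rate 67%, summed share 5.46%) the slopes of COX2, COX3, ND1, ATP6 and CYTB went to -0.14, -0.12, -0.08, -0.05 and -0.04, and that of COX1 to 0.02.

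For kinetic, 0 of the 6 genes passed, where 1 gene in all did (0.00777%), and 0 of 6 had an unadjusted p under 0.05, against 511 genes (3.97%). DESeq2 called 0 of 6 and 3 genes in all (0.0233%), and limma voom 0 of 6 and 2 genes in all (0.0155%). The slopes per unit were -0.16 ± 0.28 for COX2 (95% interval -0.75 to 0.42) and -0.16 ± 0.28 for COX3, and those of ND1, ATP6, CYTB and COX1 were -0.05, -0.02, -0.01 and 0.04. Of the 6 slopes 1 was above 0, against 55.6% of all slopes. The adjusted p of edgeR ran from 0.969 to 1.00. The intervals were wide, from -0.75 to 0.63 over the 6 genes, since 21 of the 23 cows had kinetic scores between 1.00 and 1.88. Without cows 1 and 15 all 6 slopes were below 0, at -0.64 ± 0.53 for COX2, -0.45 ± 0.54 for COX3, -0.36 ± 0.53 for ATP6, -0.27 ± 0.53 for COX1, -0.24 ± 0.51 for ND1 and -0.09 ± 0.59 for CYTB. Their intervals ran from -1.75 to 1.15, and 0 of 6 passed.

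For morphology, 0 of the 6 genes passed, where 1 gene in all did (0.00777%), and 0 of 6 had an unadjusted p under 0.05, against 1418 genes (11%). DESeq2 called 0 of 6 and 73 genes in all (0.568%), and limma voom 0 of 6 and 0 genes in all (0%). The slopes per unit were 0.13 ± 0.15 for ATP6, 0.12 ± 0.16 for COX1, 0.10 ± 0.17 for CYTB, 0.10 ± 0.15 for COX2, 0.08 ± 0.15 for ND1 and 0.08 ± 0.15 for COX3. All were above 0 but less than 1 SE from it in this fit, and 51.9% of all genes had a slope above 0. The adjusted p of edgeR ran from 0.689 (ATP6) to 0.820 (COX3), and the intervals covered -0.25 to 0.46. The slopes were larger with limma voom, from 0.17 ± 0.15 (ND1) to 0.24 ± 0.14 (COX2), where 0 of 6 passed. Without cows 1 and 15 they were 0.17 ± 0.27 (COX1) to 0.29 ± 0.31 (CYTB), and 0 of 6 passed.

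**Figure D5:**
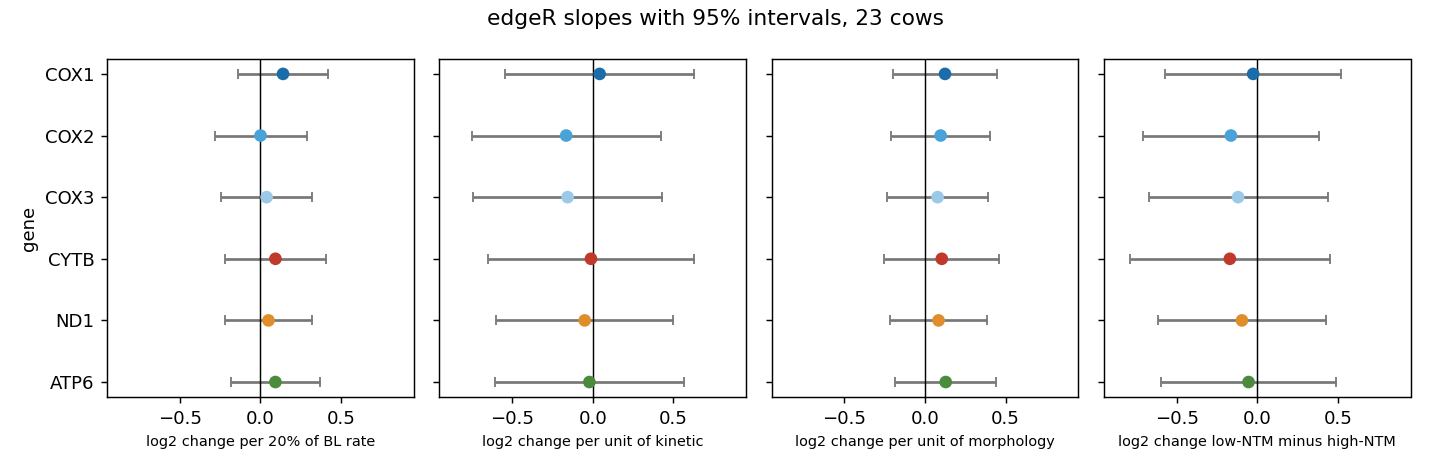
Slopes of edgeR with 95% intervals (log2, 23 cows) for the 6 genes on BL rate per 20%, kinetic per unit and morphology per unit, and the low-NTM minus high-NTM difference. Every interval crosses the line at 0, and those of kinetic and of the NTM classes are the widest.

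As simple correlations of log2 cpm with the scores over the 23 cows, Pearson's r with BL rate was -0.063 (COX2) to 0.149 (COX1), r with kinetic was -0.187 (COX2) to -0.028 (COX1) and r with morphology was 0.041 (CYTB) to 0.116 (ATP6). Spearman's rho was -0.172 to 0.065, -0.326 to -0.102 and 0.093 to 0.187. Without cows 1 and 15, the 2 cows farthest from the median of each score, r was -0.036 to 0.154, -0.279 to -0.030 and 0.081 to 0.186. Over the 15 log2 ratios, r with BL rate ran from -0.364 (ND1 to ATP6) to 0.475 (COX1 to ND1, 0.385 without the 2 farthest cows), with kinetic from -0.303 to 0.322 and with morphology from -0.364 to 0.128. These are descriptions of 15 overlapping ratios over the same 23 libraries.

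The NTM classes were compared as a control, since the cells were taken before the semen was used. The summed share was 1.69% to 5.83% with a median of 2.88% in 15 high-NTM cows and 2.13% to 4.86% with a median of 2.96% in 8 low-NTM cows, and the range of the latter lay inside that of the former. By edgeR's quasi-likelihood test, 0 of the 6 genes passed an FDR of 0.05, where 0 of 12868 genes did (0%), and 0 of 6 had an unadjusted p under 0.05, against 2770 genes (21.5%). Over all genes this portion was well above 0.05, although 0 genes passed the FDR, so the classes cannot be taken as a clean control. The p-values of genes that vary together are not independent, so this portion does not show that the classes differ. The cause was not tested. DESeq2 called 0 of 6 and 84 genes in all (0.653%), and limma voom 0 of 6 and 63 genes in all (0.49%). The low-NTM minus high-NTM difference was -0.17 ± 0.30 for CYTB, -0.16 ± 0.26 for COX2, -0.12 ± 0.27 for COX3, -0.09 ± 0.25 for ND1, -0.05 ± 0.26 for ATP6 and -0.03 ± 0.26 for COX1 (log2 ± SE), with intervals between -0.79 and 0.52. All 6 differences were below 0, where 49.6% of all genes had one above 0. With limma voom all 6 turned positive.

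The levels of the 6 genes moved most closely with 1 measure of the libraries. The 10 other genes with the highest counts held 19.1% (cow 19) to 39.2% (cow 20) of the counts, and r of that share with log2 cpm was 0.810 for COX2, 0.693 for COX3, 0.651 for ND1, 0.626 for COX1, 0.620 for ATP6 and 0.481 for CYTB. Without the 2 cows farthest from the median it was 0.334 to 0.696. Both measures come from the same library. The share of these 10 genes was taken over the total counts, while log2 cpm was also scaled by the TMM factor. That factor was 1.415 in cow 19 and 0.759 in cow 20, so the scaling itself raised log2 cpm in cow 20 relative to cow 19. No r with the unscaled share of a gene was computed, so the portion of r due to scaling is not known. The part of these 10 genes in the shares was not tested. With their counts taken out of the total, the median summed share was 4.28%. The other measures were weaker by r over the 23 cows. For the total count, r was -0.003 to 0.128, and 0.149 (COX2) to 0.332 (CYTB) without the 2 farthest cows. For the number of genes with a count, r was 0.186 to 0.338 and rho 0.298 (CYTB) to 0.481 (COX1). For the first principal component of the other genes, which held 38.1% of their variance, r was -0.195 to -0.082.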

How the data were processed

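RNA of granulosa cells of 24 cows was sequenced as stranded, rRNA-depleted total RNA with paired reads. The authors deposited raw counts of read pairs per Ensembl gene for each cow. Before that they removed adapters with cutadapt, trimmed with PRINSEQ, mapped to UMD3.1 with STAR and counted with HTSeq in intersection-nonempty mode with reverse strand. Read pairs that fit overlapping genes or nuclear copies of mitochondrial DNA are uncertain in such counts.

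All files list 24615 genes in common, and these were used. The 6 genes, with their names, were given as a set of IDs, and 1 ID listed for fewer cows was left out. The members and lists were chosen with earlier results of these data known. The gene table (RefSeq) matched 0 IDs, so lists of nuclear subunits, regulators and cell markers were not used. Other genes are named by 1 rule: the 5 with the highest r with the mean of the 6. Shares have 95% Wilson intervals. The 12868 genes that reached 1 cpm in 3 or more cows were scaled by TMM and tested with edgeR 4.0.16 (R 4.3.3), on each score with NTM class as covariate, over 23 cows. Age, RIN, bull and sampling date were not analysed here. SE is the slope divided by the root of F, and log2 cpm used a prior count of 2. Every library is a separate cow. Alternatives were DESeq2 1.42.0, limma voom 3.58.1, other scaling, filters, ranks, a principal component, cow 8 included, and each cow left out. Descriptions used Python 3.11.15 and numpy 2.4.6. On simulated data of 12868 genes, a slope of 1 per SD of the score was recovered in 92% (kinetic) to 97% (morphology) of changed genes, and one of 0.5 in 68% (BL rate) to 83% (kinetic). The changed genes were drawn at random from all genes, and genes were simulated without correlation between them. Most genes varied less than the 6 genes, so these rates do not give the recovery for the 6.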

Additional observations from a re-analysis of the deposited data

Results flagged for a closer look

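The study had already left out cow 8 as an outlier, and the 6 genes varied together. What follows on cow 8 is thus a description and not a set of separate tests. Cow 8 stood apart from the other 8 low-NTM cows, by Dixon's test at 95%, in the log2 share of all 6 genes. Its shares were 0.05291% (COX1), 0.008919% (COX2), 0.01115% (COX3), 0.0003349% (CYTB), 0.001066% (ND1) and 0.001384% (ATP6), with a sum of 0.07577%. On the linear scale, only the share of ND1 (0.001066%) of the 7 shares tested stood apart. The count ratios of cow 8 that stood apart on the log2 scale, 10 of 15, were COX1 to CYTB (158), COX1 to ND1 (49.64), COX1 to ATP6 (38.23), COX2 to CYTB (26.63), COX2 to ND1 (8.366), COX3 to CYTB (33.3), COX3 to ND1 (10.46), COX3 to ATP6 (8.056), CYTB to ND1 (0.3141) and CYTB to ATP6 (0.2419).

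Among the 8 low-NTM cows without cow 8, 0 of 7 shares and 1 of 15 ratios stood apart. That ratio was ND1 to ATP6 in cow 10, at 1.319, the highest of the 23 cows. Chance gives about 1 such value in 20 groups.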

How the results depend on the processing

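No setting called any of the 6 genes: of 648 further slopes on the scores 0 had an adjusted p under 0.05, and the smallest was 0.658 on BL rate, 0.827 on kinetic and 0.507 on morphology. For the NTM classes the smallest was 0.532, and 0 of the 6 genes were called in any setting. A failed threshold at this number of cows leaves slopes inside the intervals undecided, and a single library per cow leaves repeat error unknown. No paired analysis was possible because the replicate numbers were given in accession order and pair no cows.

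The number of all genes called for kinetic, 1 in the main result, was 186 with no low-count filter, 3 with DESeq2, 2 with limma voom, 0 with ranks, 7 with the first principal component as covariate and 0 without cows 1 and 15. For morphology, also 1, it was 2 with total counts only, 73 with DESeq2, and 0 with limma voom, with ranks and without cows 1 and 15. For NTM class, 0 in the main result, it was 84 with DESeq2, 63 with limma voom and 2 with cow 8 included. With 1 cow left out, the numbers called were 0 to 1 for BL rate, 0 to 3 for kinetic (3 without cow 23), 0 to 6 for morphology (6 without cow 21) and 0 to 27 for NTM class (27 without cow 2, 22 without cow 7).

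Directions of the small slopes changed. The slope of COX2 on BL rate was -0.003194 with DESeq2 size factors, -0.01837 with total counts only, -0.005361 with no low-count filter, -0.003185 with DESeq2, -0.02101 with limma voom, -0.004758 with ranks, -0.008276 with the principal component and -0.008371 without cows 1 and 15. For kinetic, COX1 was -0.007053 with ranks, -0.004385 with the principal component and -0.2724 without cows 1 and 15. With limma voom the kinetic slopes were 0.02415 (COX2), 0.03004 (COX3), 0.1454 (CYTB), 0.06855 (ND1) and 0.1119 (ATP6). CYTB on kinetic was 0.0189 with total counts only, 0.02228 with upper-quartile factors, 0.0001387 with the strict filter and 0.02089 with cow 8 included, and ATP6 was 0.01151, 0.01229 and 0.01296 with the first, second and last of these. NTM differences turned positive with limma voom at 0.1215 (COX1), 0.06035 (COX2), 0.1199 (COX3), 0.07419 (CYTB), 0.08124 (ND1) and 0.1276 (ATP6), with total counts only at 0.0704 (COX1), 0.00232 (ND1) and 0.04881 (ATP6), and for COX1 at 0.01486 with upper-quartile factors and 0.0001121 with the strict filter. The cause of these changes was not tested. Of the slopes with 1 cow left out, 38 of the score slopes and 13 of the NTM differences changed direction. Over these, the slopes on BL rate were -0.1359 to 0.05914 (COX2), -0.1211 to 0.1056 (COX3), -0.03945 to 0.1696 (CYTB), -0.08183 to 0.1161 (ND1) and -0.05429 to 0.1731 (ATP6), those on kinetic -0.1514 to 0.1114 (COX1), -0.2985 to 0.08732 (CYTB), -0.2632 to 0.01803 (ND1) and -0.2108 to 0.0623 (ATP6), and the NTM differences -0.127 to 0.09945 (COX1), -0.2618 to 0.01681 (COX3), -0.1868 to 0.02066 (ND1) and -0.1516 to 0.0805 (ATP6).

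Without the 10 highest other genes in the total, the median shares moved to 4.275% (sum), 2.399% (COX1), 0.6841% (COX2) and 0.1986% (ATP6), by construction. With cow 8 included the median SD of the log2 ratios rose to 0.3706.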
